A study of Mus musculus with 8 samples.

Results

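The FOXO and FOXP transcription factors are 2 related groups of forkhead proteins, and 7 of their genes were followed here in mouse spleen natural killer (NK) cells: Foxo1, Foxo3, Foxo4, Foxo6, Foxp1, Foxp3 and Foxp4. The members were chosen by gene symbol with the contrast between ChAT+ and ChAT- cells on these arrays already known, so their own levels and differences are given as a description, with no test. They are 7 of 20280 genes that could be named on the array, and 14 probes, each a single spot, measure them. The study sorted magnetically enriched spleen NK cells by a ChAT-eGFP reporter, a green fluorescent protein that marks cells with activity of the choline acetyltransferase gene, Chat. RNA of 4 ChAT+ pools and 4 ChAT- pools, each of 2 to 4 mice, was hybridised to 8 one-colour Agilent arrays. The strain, age and sex of the mice were not given in the sources used here, and nothing in the labels says that pools of a group came from separate mice, so each p-value reflects variation among these pools, part of which may be technical. The arrays of the ChAT+ pools lay on 1 slide and those of the ChAT- pools on another, so a slide effect and an effect of reporter status cannot be told apart in the values given here.

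FOXO factors bind DNA through a forkhead domain and switch on genes for cell cycle arrest, survival, metabolism and lymphocyte homing. Growth factor and cytokine signals act on them through phosphoinositide 3-kinase (PI3K) and the kinases AKT and SGK, which phosphorylate FOXO proteins and send them out of the nucleus, so much of their control leaves their own transcript level untouched. FOXP factors act mainly as repressors, pair through a leucine zipper and recruit histone deacetylases, and Foxp3 is the factor that defines regulatory T cells. In mouse NK cells, Foxo1 is known to restrain maturation and to support homing to lymph nodes.

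Between 50.2% and 63.2% of spots per array were well above background, Agilent's flag for a spot brighter than its surroundings, and 0 spots were saturated. Values are log2 of the background-subtracted intensity minus the array's 75th percentile, so 0 is the level of that percentile; different probes hybridise differently, and levels are compared only within a probe. Chat averaged 3.75 ± 0.25 in ChAT+ pools and 2.65 ± 0.34 in ChAT- pools (SD, n = 4 each; limma adjusted p = 0.0201), the direction of the sort, although without ChAT+ replicate 3 (adjusted p = 0.0625) or ChAT- replicate 4 (adjusted p = 0.0647) it did not pass. All 10 NK cell markers tested were well above background on all 8 arrays, as were all 10 B cell markers and 10 of 12 T cell markers, so signal for markers of other lymphocytes was present in every pool. In pooled RNA of this kind, fewer cells of a type and less RNA per cell cannot be told apart.

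Foxo6 was the member that differed most, and its signal in ChAT+ pools was at background. Its probe A_52_P589568 read -5.06, -5.85, -4.04 and -4.77 in ChAT+ replicates 1 to 4 and -1.24, -1.77, -0.17 and -1.04 in ChAT- replicates 1 to 4, in log2 units. In unscaled intensity, the spot read 70.8, 30.4, 112 and 96.3 in the ChAT+ pools and 904, 614, 2778 and 1022 in the ChAT- pools. The groups stood far apart: the dimmest ChAT- pool was brighter than the brightest ChAT+ pool on both scales, and the spot was well above background on 0 of 4 ChAT+ arrays and 4 of 4 ChAT- arrays. This flag pattern was found for 180 of the 55681 probes on the array, or 0.323%.

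Foxo6 encodes the FOXO factor best known from brain and, unlike its relatives, a protein that stays largely in the nucleus. Its scaled level averaged -4.93 ± 0.75 in ChAT+ pools and -1.05 ± 0.66 in ChAT- pools (SD, n = 4 each), a difference of -3.88 log2 units (SE 0.50). Because the ChAT+ spots were not well above background, the size of the fold is uncertain. Each ChAT+ spot was raised to the dimmest signal still well above background on its array wherever it read below that. Foxo6 was then 12.5-fold lower in ChAT+ pools. Only ChAT+ replicate 2 was raised, to -4.91, and the other spots kept their own readings, so this fold is not a firm lower bound. With the normexp background model, which compresses dim signal, the difference was -2.47 log2 units. A second Foxo6 probe, A_55_P2092226, did not show the difference. It read -5.25, -4.75, -6.03 and -5.71 in ChAT+ replicates 1 to 4 and -4.43, -4.08, -6.16 and -6.51 in ChAT- replicates 1 to 4. It was well above background only in ChAT+ replicate 2 and ChAT- replicates 1 and 2, its groups overlapped, and its mean difference was -0.14 log2 units (SE 0.67). Both probes are annotated to the same RefSeq transcript, so the low signal of the second leaves the Foxo6 difference resting on 1 probe.

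Markers of some other cell types were also lower in ChAT+ pools. Of 7 tested basophil and mast cell markers, 5 fell in ChAT+ pools in limma's test over all genes, with a median log2 fold change of -4.04 over the 7. Their mean level was -1.80, -4.09, -1.86 and -1.52 in ChAT+ replicates 1 to 4, against 1.93, -0.19, 1.70 and 1.31 in ChAT- replicates 1 to 4. Of the 7, 4 were well above background on all 8 arrays, so the ChAT+ means include some readings that were not. The groups did not overlap, and replicate 2 was the lowest of its group both for these markers and for Foxo6. Replicate 2 was also the lowest of both groups for the mean of the myeloid, erythroid and platelet markers. The highest pools differed: replicate 3 of each group for Foxo6, but ChAT+ replicate 4 and ChAT- replicate 1 for the basophil and mast cell markers. Leaving out 1 array at a time gave 2 to 7 called basophil and mast cell markers. Cd200r3, an activating receptor of basophils and mast cells, had the same flag pattern as Foxo6, with 0 of 4 ChAT+ and 4 of 4 ChAT- arrays well above background, while Mcpt8, a basophil protease, stayed well above background on all 8 arrays and fell by 4.04 on the log2 scale (SE 0.68, adjusted p = 0.0160). Clec9a, a receptor of cross-presenting dendritic cells, also had the flag pattern of Foxo6, and 2 of 7 dendritic cell, 2 of 4 erythroid and 2 of 8 platelet markers fell, with none called higher. Without 1 array at a time these 3 counts ran from 1 to 2, from 1 to 2 and from 1 to 3. Cd200r3 and Clec9a entered the test, which required signal well above background on at least 4 of 8 arrays, only through their ChAT- arrays. Requiring it on all 8 arrays left 3 basophil and mast cell markers and 1 dendritic cell marker called. The erythroid and platelet counts were then 2 and 3. The part of these cells in the Foxo6 difference was not tested.

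Foxo1, the main FOXO factor of lymphocytes, was well above background by both of its probes on all 8 arrays. Probe A_51_P138044 read 2.66, 2.70, 2.75 and 2.52 in ChAT+ replicates 1 to 4 and 2.66, 2.73, 2.53 and 2.77 in ChAT- replicates 1 to 4. These values overlapped throughout, and the means differed by -0.02 log2 units (SE 0.07). Probe A_52_P453884 read 2.34, 2.11, 2.24 and 2.07 in ChAT+ replicates 1 to 4 and 2.06, 1.97, 1.93 and 1.92 in ChAT- replicates 1 to 4. Here every ChAT+ pool was above every ChAT- pool, by a narrow margin at ChAT+ replicate 4 and ChAT- replicate 1, and the difference was 0.22 log2 units (SE 0.07). The 2 probes of 1 transcript therefore gave different pictures, and both differences were small. Scaling each array to its median in place of its 75th percentile moved the median of all genes to 0.24, against 0.03 log2 units, and added a similar shift to each member, which turned the difference of A_51_P138044 to 0.20.

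Foxo3 and Foxo4 were at the edge of detection. Foxo3, a FOXO factor linked to stress resistance and apoptosis, read -5.46, -5.60, -4.68 and -4.27 in ChAT+ replicates 1 to 4 and -5.06, -5.25, -4.76 and -5.27 in ChAT- replicates 1 to 4. Its probe was well above background only in ChAT+ replicate 4 and ChAT- replicate 3, and the groups overlapped. Foxo4, an X-linked FOXO factor, was well above background on none of the 8 arrays by either probe. Its probe A_55_P2113026 nevertheless read -6.00, -6.79, -5.77 and -5.32 in ChAT+ replicates 1 to 4 and -7.35, -7.09, -6.93 and -7.36 in ChAT- replicates 1 to 4. No fold is given because neither group was well above background. Neither gene passed the filter of 4 arrays well above background, so 5 of the 7 members entered the test over all genes.

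**Figure D1:**
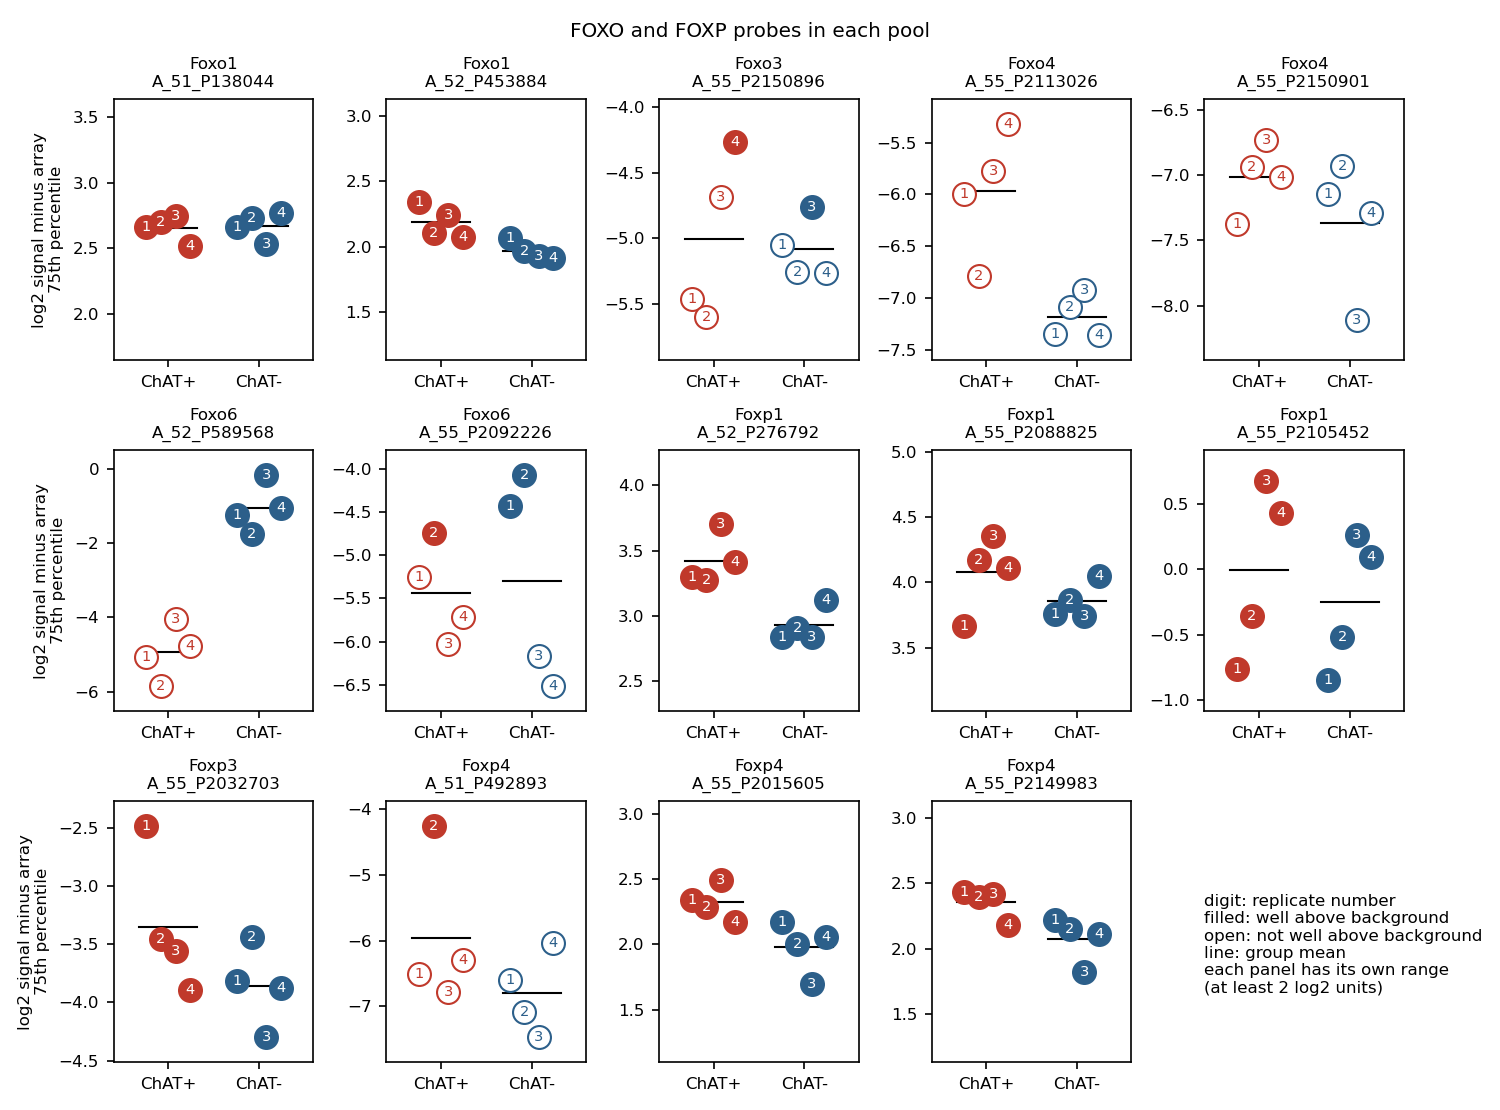
Level of each FOXO and FOXP probe in each pool, as log2 signal minus the array's 75th percentile, with ChAT+ pools left of ChAT- pools and the group mean as a line. Filled circles are well above background and open circles are not; Foxo6 A_52_P589568 is open in all 4 ChAT+ pools, from -5.85 to -4.04, and filled in all 4 ChAT- pools, from -1.77 to -0.17.

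Foxp1, a repressor needed for B cell development and for quiescence of naive T cells, gave bright signal by 2 of its 3 probes. Probe A_52_P276792 read 3.30, 3.28, 3.70 and 3.41 in ChAT+ replicates 1 to 4 and 2.84, 2.91, 2.84 and 3.12 in ChAT- replicates 1 to 4. Every ChAT+ pool was above every ChAT- pool, and the difference was 0.49 log2 units (SE 0.12), or 1.41-fold. Probe A_55_P2088825, annotated to the same transcript, read 3.67, 4.17, 4.36 and 4.11 in ChAT+ replicates 1 to 4 and 3.75, 3.87, 3.75 and 4.05 in ChAT- replicates 1 to 4. Its groups overlapped because ChAT+ replicate 1 was the lowest of all 8, and its difference was 0.22 log2 units (SE 0.16). Probe A_55_P2105452, annotated to another Foxp1 transcript, read -0.76, -0.35, 0.68 and 0.43 in ChAT+ replicates 1 to 4 and -0.85, -0.52, 0.27 and 0.10 in ChAT- replicates 1 to 4. On this probe the pools numbered 1 and 2 were low and those numbered 3 and 4 high in both groups, and its difference of 0.25 log2 units (SE 0.43) was smaller than the spread within a group. Beside the higher Foxp1 signal of the first probe, 6 of 10 B cell markers rose in ChAT+ pools, with a mean level of 1.80 to 2.20 in ChAT+ pools and 0.99 to 1.34 in ChAT- pools; their part in it was not tested.

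RefSeq places 3 starts in the mouse Foxp1 gene, on the minus strand of chromosome 6 (build GRCm38.p6). Their windows, from 250 bases before to 50 after each start, are shown because Foxp1 has more starts in that table than any other member matched and probes annotated to 2 of its transcripts. Capitals mark the forkhead core TGTTT, read on either strand (its reverse complement is AAACA).
Foxp1 window chr6:99520944-99521243: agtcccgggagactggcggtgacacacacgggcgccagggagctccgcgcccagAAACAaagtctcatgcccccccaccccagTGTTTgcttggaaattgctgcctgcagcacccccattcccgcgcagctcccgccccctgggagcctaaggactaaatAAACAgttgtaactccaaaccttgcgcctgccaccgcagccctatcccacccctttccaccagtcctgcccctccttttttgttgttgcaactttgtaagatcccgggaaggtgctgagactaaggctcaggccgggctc
Foxp1 window chr6:99266466-99266765: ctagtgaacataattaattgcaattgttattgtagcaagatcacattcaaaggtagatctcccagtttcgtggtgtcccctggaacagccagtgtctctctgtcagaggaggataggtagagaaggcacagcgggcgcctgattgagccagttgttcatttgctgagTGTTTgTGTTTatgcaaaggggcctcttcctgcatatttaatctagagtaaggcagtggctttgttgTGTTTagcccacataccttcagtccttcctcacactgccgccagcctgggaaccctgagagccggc
Foxp1 window chr6:99028249-99028548: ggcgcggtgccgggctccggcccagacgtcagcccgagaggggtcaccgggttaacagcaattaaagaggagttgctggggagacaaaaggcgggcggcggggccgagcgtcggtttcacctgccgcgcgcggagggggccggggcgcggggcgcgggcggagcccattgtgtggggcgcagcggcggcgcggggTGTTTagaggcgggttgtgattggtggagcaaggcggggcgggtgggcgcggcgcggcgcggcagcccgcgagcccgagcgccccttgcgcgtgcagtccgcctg
The first and second windows hold 3 cores each and the last holds 1. Of the 8 start windows that RefSeq gives for 5 of the 7 members, 6 hold the core, and 50.5% of all 32851 mouse windows of that length hold it. The longer FOXO element TGTTTAC, which contains the core and whose reverse complement is GTAAACA, is in 0 of the 8 member windows and in 3.65% of all windows. These matches are letters in a window, and the arrays carry no binding data. Which start gives the transcript that each probe reads was not tested.

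Foxp3 signal was low but well above background on all 8 arrays. Its 1 probe read -2.49, -3.46, -3.56 and -3.89 in ChAT+ replicates 1 to 4 and -3.81, -3.44, -4.30 and -3.87 in ChAT- replicates 1 to 4. ChAT+ replicate 1 stood above the other 7 pools, which overlapped. The difference was 0.51 log2 units (SE 0.35). The mean level of 12 T cell markers was 0.26, 0.39, 0.02 and 0.05 in ChAT+ replicates 1 to 4 and 0.32, 0.48, 0.10 and 0.46 in ChAT- replicates 1 to 4. Their mean was highest in replicate 2 of each group. Limma called 0 of them, and before adjustment 1 was higher and 1 lower at p under 0.05. The part of T cells in the Foxp3 signal was not tested.

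Foxp4, the third FOXP factor measured and a partner able to pair with Foxp1, was bright by 2 of 3 probes, which are annotated to 1 transcript. Probe A_55_P2015605 read 2.34, 2.29, 2.50 and 2.17 in ChAT+ replicates 1 to 4 and 2.17, 2.00, 1.70 and 2.06 in ChAT- replicates 1 to 4. Probe A_55_P2149983 read 2.44, 2.40, 2.42 and 2.18 in ChAT+ replicates 1 to 4 and 2.22, 2.15, 1.83 and 2.11 in ChAT- replicates 1 to 4. Both put 3 ChAT+ pools above all ChAT- pools, with ChAT+ replicate 4 level with or just below ChAT- replicate 1 and ChAT- replicate 3 lowest. The differences were 0.34 (SE 0.12) and 0.28 (SE 0.11) log2 units, and the 2 probes' deviations from their group means correlated at 0.91 over 8 arrays. The third probe, A_51_P492893, annotated to another transcript, was well above background only in ChAT+ replicate 2, at -4.26, and read -6.78 to -6.30 in the other ChAT+ pools and -7.47 to -6.04 in the ChAT- pools.

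Over the members as a set, 8 of 14 probes were well above background on all 8 arrays, and 7 of these 8 had a higher mean in ChAT+ pools (by 0.22 to 0.51 log2 units). Over all genes tested, 7227 of 13603 had a higher mean in ChAT+ pools. The 8 probes belong only to Foxo1, Foxp1, Foxp3 and Foxp4, so they are not separate members, and their differences shift with the scaling. Of those 8, 2 had every ChAT+ pool above every ChAT- pool, and 6 overlapped. Across the 32086 probes kept, 7.83% had every ChAT+ pool higher and 6.46% every ChAT+ pool lower. In the limma fit over those probes, 0 of the 9 member probes kept were called higher and 1, the Foxo6 probe, was called lower, where the calls were 1.46% higher and 1.64% lower over all probes. In the fit over 13603 genes, each represented by its brightest probe, 0 of 5 members were called higher and 1 lower, where the calls were 2.8% higher and 3.14% lower over all genes. The members were chosen with this contrast in view, so nothing is read from those counts. The Foxo6 probe passed the filter on dim signal only through its ChAT- arrays.

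**Figure D2:**
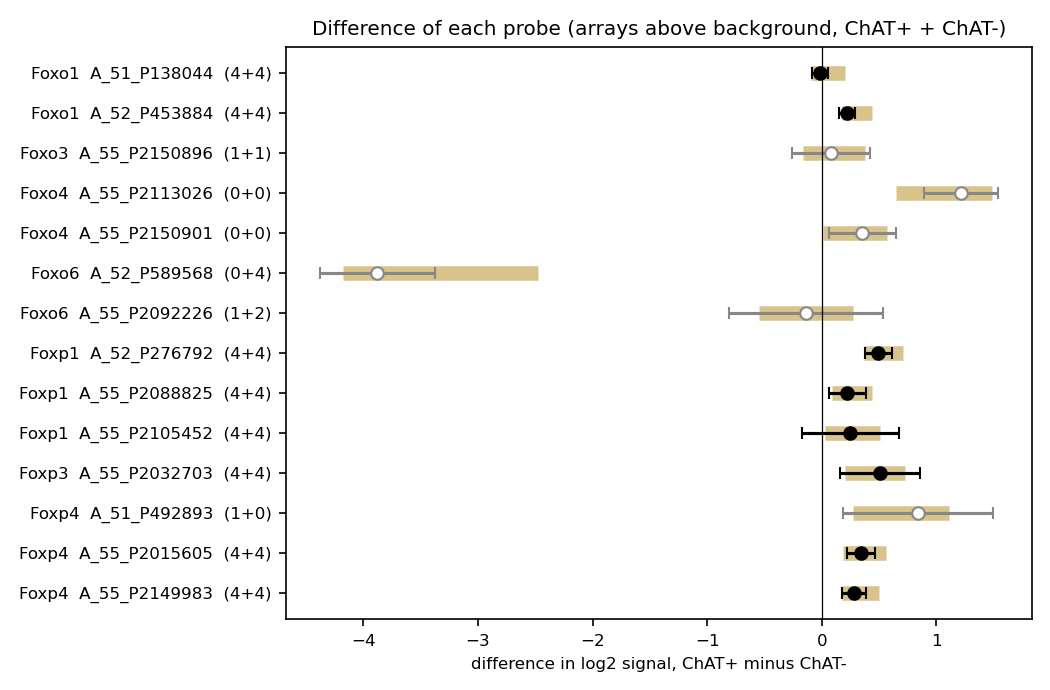
Difference of each member probe, ChAT+ minus ChAT-, in log2 units, as a point with its SE, and the range of that difference over the alternative analyses as a band; the numbers in brackets count ChAT+ and ChAT- arrays well above background, and open points mark probes without such signal on all 8. Foxo6 A_52_P589568 lies at -3.88 with a range of -4.18 to -2.47, and the 8 filled points lie between -0.02 and 0.51.

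The genes whose levels followed each member most closely were taken from 12847 tested genes by the correlation of deviations from the group means over the 8 arrays, which share slides and labelling and are few for so many genes. For Foxo1, Zmat5 was among them (r = 0.97). For Foxo6, whose ChAT+ values were not well above background, they were Ei24 and Abl2 (both 0.99). Neither of these 2 genes shared the Foxo6 difference between groups, with log2 fold changes of -0.07 and 0.18. For Foxp1 they were Pom121 (0.97) and Extl3 (0.95), for Foxp3 Slc6a6 (0.97) and Dcpp1 (0.96), and for Foxp4 Tspan13 and Nfyc (both 0.98). Genes beside Foxo6 on its chromosome, looked at after the values were seen, did not share its difference either: of the 4 tested among the nearest 8, log2 fold changes were 0.08 for Guca2a, -0.64 for Hivep3, 0.05 for Scmh1 and 0.42 for Ctps, and none was called.

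Among 33 tested regulators of FOXO proteins, 3 rose and 2 fell in ChAT+ pools, and the median log2 fold change was 0.03, the same as the 0.03 of all genes. Over all genes, 2.8% were called higher and 3.14% lower, the shares to set beside the count of each list. Sgk1, a kinase that phosphorylates FOXO proteins, fell most, averaging 0.66 ± 0.44 in ChAT+ pools and 2.30 ± 0.32 in ChAT- pools (SD, n = 4 each), a difference of -1.64 log2 units (SE 0.24, limma adjusted p = 0.0103). Pik3cb, a catalytic subunit of PI3K, fell by 0.85 on the log2 scale (SE 0.19, adjusted p = 0.0362). Sirt1, a deacetylase that acts on FOXO proteins, rose by 0.53 (SE 0.10, adjusted p = 0.0264). Phlpp2, a phosphatase of AKT, rose by 0.60 (SE 0.12, adjusted p = 0.0297). The kinases Akt1 and Akt2 differed by -0.18 and -0.09 (adjusted p = 0.398 and 0.717).

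The Sgk1 call held whichever single array was left out and, over 20 alternative analyses, was lost only without both arrays numbered 3 (adjusted p = 0.0649). The calls of the other regulators named here rested on fewer settings: leaving out 1 array ended the call of Sirt1 for 5 of the 8 arrays (ChAT+ replicates 1 and 3, ChAT- replicates 2, 3 and 4), of Phlpp2 for 6 (all but ChAT+ replicate 2 and ChAT- replicate 2) and of Pik3cb for 6 (all but ChAT+ replicate 2 and ChAT- replicate 1), with adjusted p up to 0.0822, 0.0821 and 0.0973. With the mean of its probes in place of the brightest, Phlpp2 changed direction, to -0.022.

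Of 26 tested genes that FOXO factors are known to activate, 1 rose and 0 fell, where the calls over all genes were 2.8% higher and 3.14% lower. Their median was 0.05, and before adjustment 6 were higher and 2 lower at p under 0.05. No share over all genes is given for the counts before adjustment. Klhl24, a FOXO-responsive gene of the kelch family, averaged -3.37 ± 0.31 in ChAT+ pools and -4.40 ± 0.43 in ChAT- pools (SD, n = 4 each), a difference of 1.03 log2 units (SE 0.24, adjusted p = 0.0405). Its call was lost when any array other than ChAT- replicate 1 was left out (adjusted p up to 0.109). Klf2, Ccr7, S1pr1 and Il7r, homing and survival genes linked to FOXO1 in lymphocytes, did not pass: log2 fold changes were -0.26 for Klf2, 0.17 for Ccr7, 0.68 for S1pr1 and 0.40 for Il7r, with adjusted p of 0.621, 0.656, 0.181 and 0.231.

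Of 18 tested genes linked to FOXP3 in regulatory T cells, 0 rose and 2 fell, with a median of -0.10, and the mean level of the list was 1.08 to 1.53 in ChAT+ pools and 1.32 to 1.61 in ChAT- pools. Tigit, an inhibitory receptor shared by T and NK cells, averaged 1.61 ± 0.41 in ChAT+ pools and 2.64 ± 0.21 in ChAT- pools (SD, n = 4 each), a difference of -1.03 log2 units (SE 0.21, adjusted p = 0.0293). Entpd1, the ectonucleotidase CD39, fell by 0.80 on the log2 scale (SE 0.19, adjusted p = 0.046). Il2ra, the high-affinity interleukin-2 receptor chain, and Ctla4, which is also among the FOXO targets, differed by -0.04 and -0.18 (adjusted p = 0.909 and 0.525). Leaving out 1 array ended the call of Tigit for 5 arrays (ChAT+ replicates 3 and 4, ChAT- replicates 1, 3 and 4) and that of Entpd1 for 6 (all but ChAT+ replicate 2 and ChAT- replicate 1), with adjusted p up to 0.0877 and 0.128. Beside these, 3 of 10 NK cell markers fell, with the list's mean at 2.47 to 2.94 in ChAT+ pools and 3.09 to 3.39 in ChAT- pools; their part in the lower Tigit was not tested.

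**Figure D3:**
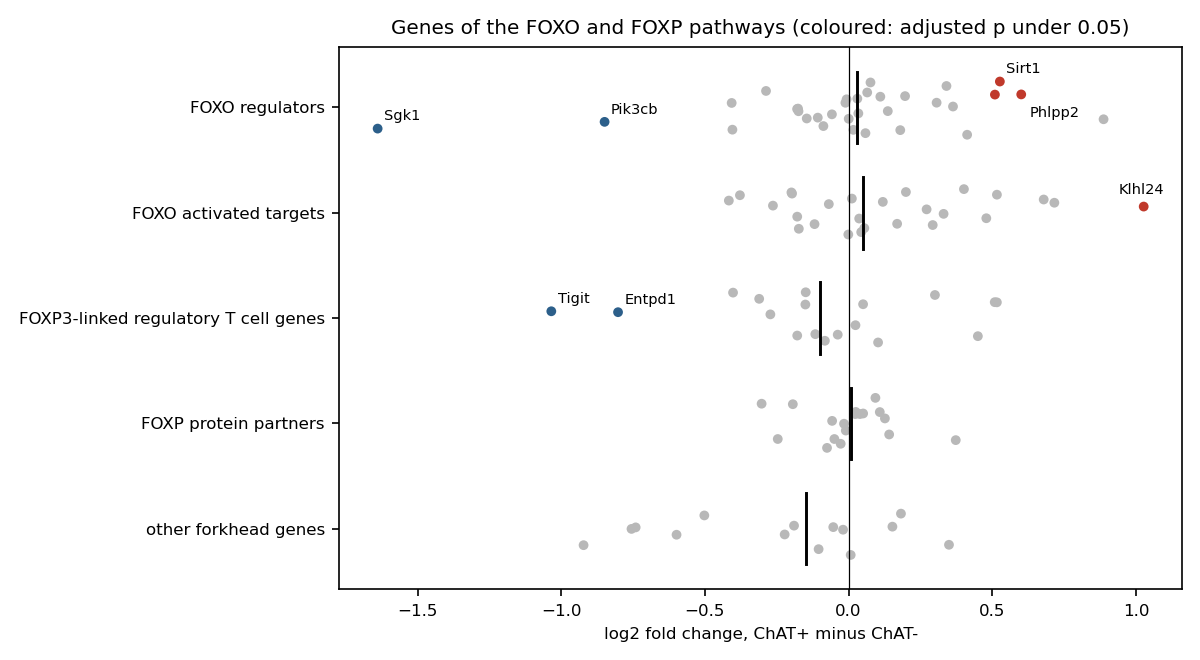
Log2 fold change, ChAT+ minus ChAT-, of every tested gene in the lists of FOXO regulators, FOXO activated targets, genes linked to FOXP3, FOXP protein partners and other forkhead genes, with the median of each list as a bar. Coloured points passed limma's test over all genes; Sgk1 lies farthest to the left at -1.64 and Klhl24 farthest to the right at 1.03.

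Partners of FOXP proteins, such as histone deacetylases, subunits of the NuRD repressor complex, NFAT and RUNX factors, showed no call among 18 tested by limma, and 0 before adjustment at p under 0.05. Their median was 0.01 and their differences ran from -0.30 for Runx1 to 0.37 for Nfatc1 (adjusted p = 0.263 and 0.227). Of 36 other forkhead genes, 14 were tested, 22 were too dim, and limma called 0, and before adjustment 0 were higher and 3 lower at p under 0.05. The median over the 14 was -0.15. The lowest adjusted p were those of Foxj1, a factor for motile cilia that also restrains lymphocyte activation, which differed by -0.76 log2 units (SE 0.21, adjusted p = 0.0655), and of Foxd2, by -0.74 (SE 0.21, adjusted p = 0.0686). Every ChAT+ pool was below every ChAT- pool for both. Each was called lower in 4 of 20 alternative analyses.

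The remaining marker lists describe the pools in which the members were measured. Of 11 markers of NKT cells and type 2 or type 3 innate lymphoid cells, 5 rose in ChAT+ pools, with a median of 1.46, and the list's mean level was -0.28 to 0.28 in ChAT+ pools and -1.62 to -1.16 in ChAT- pools. Limma called 0 of 7 myeloid markers, and before adjustment 1 was higher and 0 lower at p under 0.05. Of the 7, 2 had a higher mean in ChAT+ pools. The pools of a group differed widely: the list's mean level was 0.00 to 2.04 in ChAT+ pools and 1.06 to 2.42 in ChAT- pools. S100a8, for example, differed by -2.03 log2 units (SE 0.90, limma adjusted p = 0.205). With the replicate block, 4 of the 7 were called.

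**Figure D4:**
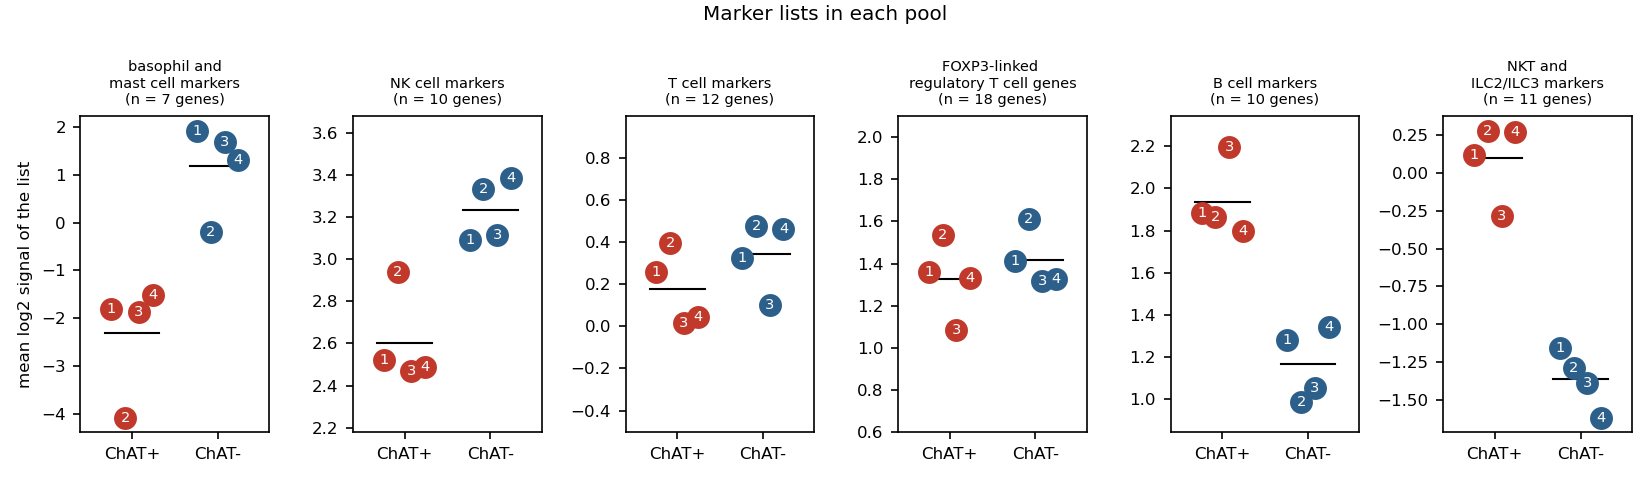
Mean log2 signal of marker lists in each pool, ChAT+ left of ChAT-, with the group mean as a line; each panel has its own range. The 7 basophil and mast cell markers lie between -4.09 and -1.52 in ChAT+ pools and between -0.19 and 1.93 in ChAT- pools, and the 12 T cell markers overlap between the groups.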

How the data were processed

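Spleen NK cell RNA was measured in 4 ChAT+ and 4 ChAT- pools. The deposited spot intensities came, per the file headers, from version 11.5.1.1 of Agilent's Feature Extraction, with background subtracted and with a flag per spot (well above background). The authors' deposited table of log2 values for 31942 probes followed the same intensities less a constant per array near the 75th percentile, and served as an alternative; the medians of its columns lay between -0.72 and -0.63.

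Control spots were left out, leaving 55681 probes. Outlier-flagged spots were also left out, except where all spots of a probe were flagged (2 to 16 probes per array). Of these 26756 were named through RefSeq accessions and 28925 were not named here. Values are log2 intensity minus each array's 75th percentile. A probe was kept where at least 4 of the 8 arrays had it well above background (32086 probes), and the brightest probe stood for a gene (13603 genes). The groups were compared in R 4.3.3 with limma 3.58.1, using lmFit then eBayes; tests were two-sided, with Benjamini-Hochberg adjustment across all genes and a threshold of 0.05. The procedure was tested on simulated data. SEs of member probes come from the 2 groups' own SDs, and those of other genes from limma.

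The members, the 5 pathway lists and the 9 marker lists were chosen with earlier results of these data known. Named were all members, up to 4 called genes per list by adjusted p or the 2 with the lowest adjusted p where none was called, the 2 genes most correlated with each member, and Chat; the other genes given as examples, with their values, were picked from the lists for their known roles. Some genes counted in the lists or taken by the rule are not reported here by name. Alternatives changed the scaling, the background (normexp, offset 50, on median spot signals), the dim-probe filter, how probes represent a gene, the variance model, weights per array, the block and the arrays used. Slide and scan could not be blocks, since each held 1 group. Signal over background and the number of arrays limit the precision. Start windows come from RefSeq (GRCm38.p6); per the file headers the array was annotated on an earlier build, so probes are given no positions.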

Additional observations from a re-analysis of the deposited data

Results flagged for a closer look

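A single value stood apart from its group. For Foxp4 probe A_55_P2149983, ChAT+ replicate 4 read 2.18, below 2.40 to 2.44 in the other 3 ChAT+ pools, with a gap of 0.854 of the group's range to its nearest neighbour, above Dixon's critical value for 4 samples. Chance flags about 1 in 20 groups, and 24 groups of member probes were examined.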

How the results depend on the processing

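All 14 member probes kept their sign except Foxo1 A_51_P138044, Foxo3 and the second Foxo6 probe, whose small differences ran from -0.09 to 0.20, -0.16 to 0.38 and -0.54 to 0.27 log2 units. Requiring signal on all 8 arrays left 0 members called lower, since the Foxo6 probe was then not tested; 1 forkhead gene was called lower there. Genes called higher and lower numbered 212 and 119 under median scaling, 98 and 126 with no filter, 1002 and 1343 with the replicate block, and 21 and 35 without both arrays numbered 3, and array weights called 577 higher. Same-numbered pools correlated at 0.54, 0.66, 0.52 and 0.03 in their deviations from the group means, a hint of shared numbers for the first 3, but ChAT+ replicate 4 correlated best with ChAT- replicate 3 (0.23) and the labels give the numbers no meaning, so they were not taken as pairs. With the replicate block, 4 of 12 T cell and 4 of 7 myeloid markers were called, against 0 and 0 without it. Among overlapping probes well above background on all 8 arrays, Foxp1 A_55_P2105452 and both bright Foxp4 probes read higher in the ChAT+ pool of each of the 4 numbers. Foxp1 A_55_P2088825 did so for 3 of the 4, Foxp3 for 2 and Foxo1 A_51_P138044 for 1. No share over all probes is given for this order, and nothing is read from it. Probes called higher and lower numbered 86 and 115 with no filter, and 764 were higher under quantile normalization. FOXO regulators called higher fell to 0 under median scaling, normexp, no filter and without both arrays numbered 3, and those called lower to 1 under median scaling, no filter and the filter at 1 array and to 0 without both arrays numbered 3. FOXO targets called higher numbered 0 with no filter, with the filter at 1 array and without both arrays numbered 3, and 4 with the replicate block. Genes linked to FOXP3 called lower numbered 1 under quantile normalization and the filter at 1 array, and 0 under median scaling, no filter and without both arrays numbered 3; 1 was called higher with the filter at 1 array and 2 with the replicate block. Other forkhead genes called lower numbered 1 under normexp, 2 with array weights and 3 with the replicate block. Phlpp2 turned to -0.022 with the mean of its probes. Leaving out 1 array at a time gave 94 to 305 genes higher and 116 to 424 lower, 79 to 232 probes higher and 102 to 412 lower, 0 to 2 FOXO regulators higher and 1 to 2 lower, 0 to 1 FOXO targets higher, 0 to 2 genes linked to FOXP3 lower and 0 to 1 other forkhead genes lower, and 2 to 4 NK cell, 4 to 5 B cell, 5 to 6 NKT and innate lymphoid and 0 to 1 T cell markers called. The cause was not tested for these changes. Foxo3 and Foxo4 lay too near background to be measured.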
